A study of Mus musculus with 12 samples.

Results

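The IFIT genes (interferon-induced proteins with tetratricopeptide repeats) were followed in B16F10 cells, a mouse melanoma line, after single and combination treatment with DAC and SFN. The rows named Ifit1, Ifit2, Ifit3 and Ifit3b were taken from the deposited count tables, which made 4 genes of 24421, and all 4 were among the 11638 genes that passed the filter on low counts. DAC is 5-aza-2'-deoxycytidine, which is built into DNA and traps DNA methyltransferases, while SFN is sulforaphane, an isothiocyanate found in broccoli. Control cells received the vehicle DMSO, DAC cells received 25 nM DAC for 72 h, SFN cells received SFN for 48 h, and the combination group (DAC+SFN) received DAC for 72 h with SFN during the last 48 h. The dose of SFN is 5 µM in the study's methods for both groups, while the labels give 5 nM for the single treatment and 5 µM for the combination treatment. If the labels are right, both the dose of SFN and the presence of DAC differ between these groups. Each group had 3 independent replicates of the same unsorted cell line.

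IFIT proteins are among the most strongly induced products of type I interferon signalling. Interferon binds its receptor, the kinases Jak1 and Tyk2 are activated, and a transcription complex that holds Stat2 and Irf9 then binds interferon-stimulated response elements in promoters. IFIT genes can also be switched on directly by interferon regulatory factors after RNA or DNA has been sensed in the cytosol. Ifit1 binds viral RNA whose cap lacks a methyl group at the first nucleotide and keeps it from being translated. Ifit2 binds RNA and limits virus replication in several tissues, and human IFIT3 binds IFIT1 and raises its stability. Ifit3b is a mouse gene that is nearly a copy of Ifit3.

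The 4 genes lie on the plus strand of chromosome 19 in mm10 (GRCm38), in the order Ifit2 (chr19:34550694-34576419), Ifit3 (chr19:34583531-34588731), Ifit3b (chr19:34607970-34613401) and Ifit1 (chr19:34640871-34650009). The related genes Ifit1bl1 and Ifit1bl2 lie between them on the minus strand, and the 6 genes together span 99316 bases in GENCODE release M21. The sequence just before the start of each member is shown because the members differed there. The sequences come from RefSeq on GRCm38.p6, read 5′ to 3′ on the plus strand, and all 4 members matched. Positions are counted from the RefSeq transcript start, which follows the last base shown. Capitals mark each match to GAAA, any 2 bases, GAAA, the core of an interferon-stimulated response element, or to its other strand (TTTC, any 2 bases, TTTC).
Ifit1, chr19:34640745-34640888: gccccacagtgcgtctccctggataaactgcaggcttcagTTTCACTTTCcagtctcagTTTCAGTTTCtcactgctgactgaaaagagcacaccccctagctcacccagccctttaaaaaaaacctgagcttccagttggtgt
Ifit3, chr19:34583329-34583528: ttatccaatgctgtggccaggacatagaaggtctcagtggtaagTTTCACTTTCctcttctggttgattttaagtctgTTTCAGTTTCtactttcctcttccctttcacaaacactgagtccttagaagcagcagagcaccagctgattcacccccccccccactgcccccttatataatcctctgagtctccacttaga
Ifit3b, chr19:34607757-34607956: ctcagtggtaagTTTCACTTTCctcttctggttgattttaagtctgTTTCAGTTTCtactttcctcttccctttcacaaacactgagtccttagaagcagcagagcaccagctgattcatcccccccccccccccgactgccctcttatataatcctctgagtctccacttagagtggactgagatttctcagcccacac
Ifit2, chr19:34550494-34550693: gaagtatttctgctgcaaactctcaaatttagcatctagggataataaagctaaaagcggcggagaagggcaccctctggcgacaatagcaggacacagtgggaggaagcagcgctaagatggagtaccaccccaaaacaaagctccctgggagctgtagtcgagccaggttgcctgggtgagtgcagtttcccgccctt

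Ifit1, Ifit3 and Ifit3b each held TTTCACTTTC followed by TTTCAGTTTC. The first of these began 104, 156 and 188 bases before the transcript start of Ifit1, Ifit3 and Ifit3b, and the second 85, 122 and 154 bases before it. Neither of the 2 promoter windows of Ifit2 held a match. Over windows of 300 bases (250 before to 50 after the start), a match was found in 1131 of 32851 promoter windows (3.44%) and in 1079 of 27025 genes (3.99%). Of the other interferon-stimulated genes with a window, 15 of 28 held one. The aligned stretches before Ifit3 and Ifit3b differed at 2 positions and agreed at 166, and 64 bases lay in gaps, unaligned ends included. A match is a run of letters and was not tested as a binding site.

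Between 15880957 and 27291436 reads per library were counted on genes, so 1 CPM (count per 1e+06 counts of the library) stands for 16 to 27 reads. The 8 melanocyte lineage markers were expressed in every library, with a summed level of 22434 to 31212 CPM. None of the 13 markers of leukocytes and endothelium passed the filter, with at most 11 counts in a library for Pecam1 and 0 counts for Cd4, Adgre1 and Cdh5 in all 12. A DAC library and a control library stood apart in the genes described here. DAC replicate 3 had the highest level of all 12 libraries in 32 of the 36 other interferon-stimulated genes tested, and control replicate 2 had the lowest in 21 of 36. The main results that rest on these libraries are given with and without them.

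Levels of the members were compared per kb of exon. In control, Ifit2 was the most abundant with 17.9 ± 1.22 CPM per kb (mean ± SD, n = 3). Ifit3 and Ifit1 followed with 5.22 ± 2.71 and 4.73 ± 2.42 CPM per kb. These SDs are between libraries that both genes share, so they do not decide the order. Ifit3 was slightly above Ifit1 in control replicate 2 (2.42 and 2.40 CPM per kb) and in replicate 3 (7.83 and 7.23). Ifit3b was lowest with 1.01 ± 0.523 CPM per kb. Only reads aligned to a single place were counted, and 41.1% of the 75-base windows of the Ifit3 transcript also occur in Ifit3b, with 35.7% of those of Ifit3b in Ifit3. The coding sequences of Ifit3 and Ifit3b share 99.1% of bases, with 11 mismatches, while the other pairs of members share 56.4% to 62.3%. Per kb of windows found in no other gene, the control levels were 18.8 ± 1.27 for Ifit2, 9.25 ± 4.81 for Ifit3, 5.13 ± 2.63 for Ifit1 and 1.63 ± 0.844 for Ifit3b. With the combination treatment, Ifit1 had 14.8 ± 4.03 and Ifit3 10.7 ± 2.73 CPM per kb of exon. Per kb of such windows, Ifit1 lay between 11.6 and 20.4 CPM and Ifit3 between 13.5 and 22.8 CPM. Both genes were lowest in replicate 2 and highest in replicate 3, with Ifit3 above Ifit1 in each. Per kb of exon the order there was reversed, with 7.63 and 12.9 CPM for Ifit3 and 10.7 and 18.8 CPM for Ifit1. Their order thus depended on the length measure. Ifit2 with 19.3 ± 1.58 and Ifit3b with 3.09 ± 0.277 CPM per kb of exon were again the highest and the lowest. Per kb of windows found in no other gene, Ifit2 lay between 19.2 and 22.2 CPM, within the range of Ifit3. By that measure Ifit2 was not the highest in every combination library.

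Ifit1, which blocks translation of RNA with an incomplete cap, was the member with the clearest response. Its levels in replicates 1, 2 and 3 were 12.1, 6.37 and 19.2 CPM in control and 39.4, 28.4 and 49.8 CPM with the combination treatment. Every combination library was above every control library, which held for 15.1% of all genes tested. With DAC alone they were 22.4, 11.7 and 48.3 CPM, and with SFN alone 19.4, 14.6 and 20.1 CPM. Both single treatments overlapped control, but each of their libraries was above the control library of the same replicate number. In edgeR's quasi-likelihood test with the replicate number as a block, Ifit1 rose 3.29-fold with the combination treatment compared to control (log2 fold change 1.72, SE 0.21, adjusted p = 4.12e-05 after Benjamini-Hochberg adjustment over 11638 genes). It was 1.09 for DAC on the log2 scale (SE 0.21, adjusted p = 0.0540 in edgeR) and 0.63 for SFN (SE 0.21, adjusted p = 0.0661 in edgeR), neither past the threshold. In bulk RNA, more cells that express a gene and more RNA per cell cannot be told apart.

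**Figure D1:**
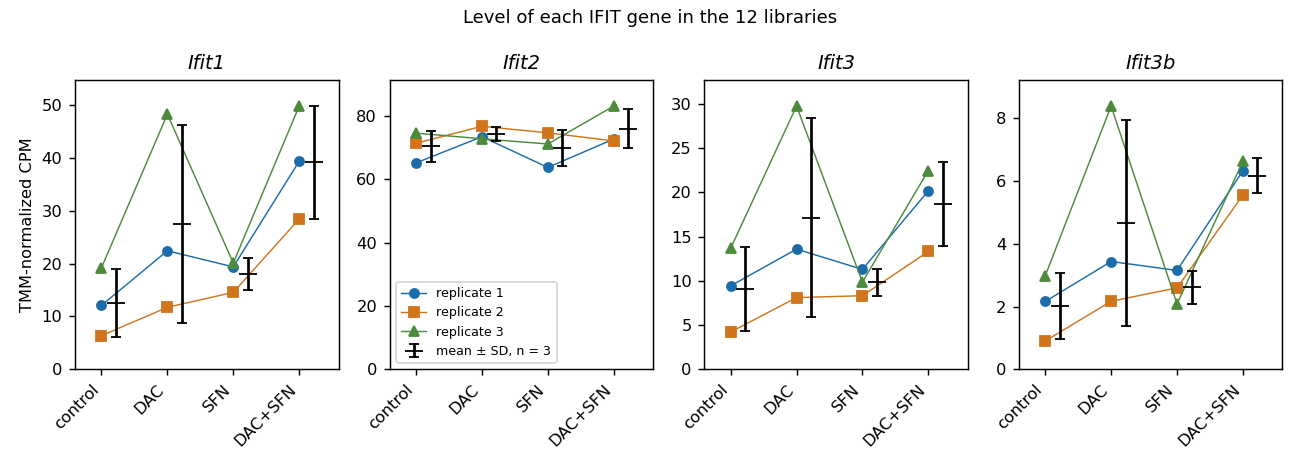
TMM-normalized CPM (vertical axes, linear from 0) of Ifit1, Ifit2, Ifit3 and Ifit3b in control, DAC, SFN and DAC+SFN. Points are libraries, joined by replicate number, and black bars show mean ± SD (n = 3). Ifit2 stays between 63.7 and 83.1 CPM, while the 3 other genes are lowest in control replicate 2 and high in DAC replicate 3 and with the combination treatment.

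Ifit3, whose human counterpart binds IFIT1, had 9.43, 4.22 and 13.7 CPM in control and 20.2, 13.3 and 22.5 CPM with the combination treatment. The groups overlapped by a narrow margin, since combination replicate 2 lay just below control replicate 3. DAC gave 13.6, 8.10 and 29.7 CPM and SFN 11.3, 8.32 and 9.85 CPM. With SFN, replicates 1 and 2 were above the control of the same number and replicate 3 was below it. Ifit3 rose 2.16-fold with the combination treatment (log2 fold change 1.11, SE 0.23, adjusted p = 0.00259 in edgeR). DAC alone gave 0.90 (SE 0.24, adjusted p = 0.158 in edgeR) and SFN alone 0.22 (SE 0.24, adjusted p = 0.592 in edgeR). The DAC estimate ranged from 0.48 to 1.09 with a library or a replicate number left out. Without control replicate 2, the lowest library, the combination estimate was 0.94 (adjusted p = 0.0195 in edgeR) and the fold change fell under 2, so the call was lost.

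Ifit3b had the fewest counts, from 21 in control replicate 2 to 224 in DAC replicate 3. Its levels were 2.16, 0.903 and 2.98 CPM in control, 3.44, 2.17 and 8.39 CPM with DAC, 3.15, 2.60 and 2.09 CPM with SFN and 6.33, 5.55 and 6.63 CPM with the combination treatment. The 3 combination libraries lay close together and above all control and SFN libraries, while DAC replicate 3 exceeded them. Ifit3b rose 3.22-fold with the combination treatment (log2 fold change 1.69, SE 0.34, adjusted p = 0.00198 in edgeR). On the log2 scale DAC alone gave 1.22 (SE 0.35, adjusted p = 0.206 in edgeR) and SFN alone 0.46 (SE 0.37, adjusted p = 0.444 in edgeR). With a library or a replicate number left out, the estimates ranged from 0.58 to 1.47 for DAC and from 0.032 to 0.94 for SFN. When the counts of Ifit3 and Ifit3b were summed as 1 gene, the combination estimate was 1.24 (adjusted p = 0.00183 in edgeR).

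Ifit2, the most abundant member per kb of exon, did not pass the thresholds in any comparison. It had 65.1, 71.3 and 74.5 CPM in control, 73.4, 76.7 and 72.8 CPM with DAC, 63.7, 74.6 and 71.1 CPM with SFN and 72.7, 72.1 and 83.1 CPM with the combination treatment. All 4 groups overlapped, and the highest library was 1.30 times the lowest, compared to 7.83 times for Ifit1, 7.05 for Ifit3 and 9.29 for Ifit3b. The log2 fold change with the combination treatment was 0.11, with a 95% confidence interval from -0.029 to 0.25 (adjusted p = 0.215 in edgeR). This interval lies below those of Ifit1 (1.27 to 2.16), Ifit3 (0.61 to 1.61) and Ifit3b (0.95 to 2.42) in the same comparison. With DAC alone the interval for Ifit2 was -0.060 to 0.22, and with SFN alone -0.15 to 0.13.

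Changed here means an adjusted p under 0.05 together with a fold change above 2 in either direction. Compared to control, 3 of the 4 members (Ifit1, Ifit3 and Ifit3b) changed with the combination treatment, all higher, where 2.66% of all genes tested changed and 2.33% changed upwards. With DAC alone 0 of 4 changed, where 0.0344% of all genes did, although DESeq2 called Ifit1 alone. An unadjusted p under 0.05 was found for 3 of 4 members and for 1170 of all 11638 genes. With SFN alone 0 of 4 changed, where 1.28% of all genes did, and DESeq2 called 0. Here 1 of 4 had an unadjusted p under 0.05, as did 3356 of all 11638 genes. The DAC result is near the threshold for Ifit1. Leaving out DAC replicate 3 lowered its estimate to 0.71 (adjusted p = 0.298 in edgeR), and in a fit of the DAC and control samples alone it was 1.08 (adjusted p = 1.29e-06 in edgeR). Leaving out DAC replicate 2 (adjusted p = 0.0317 in edgeR), SFN replicate 2 (0.0421), SFN replicate 3 (0.0265) or combination replicate 3 (0.0142) also brought Ifit1 past the threshold. Over all alternatives its adjusted p ranged from 1.29e-06 to 1.00 in edgeR and DESeq2. The combination estimate without DAC replicate 3 was 1.70 for Ifit1, 1.09 for Ifit3 and 1.66 for Ifit3b, and all 3 remained changed. These comparisons share the control samples.

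**Figure D2:**
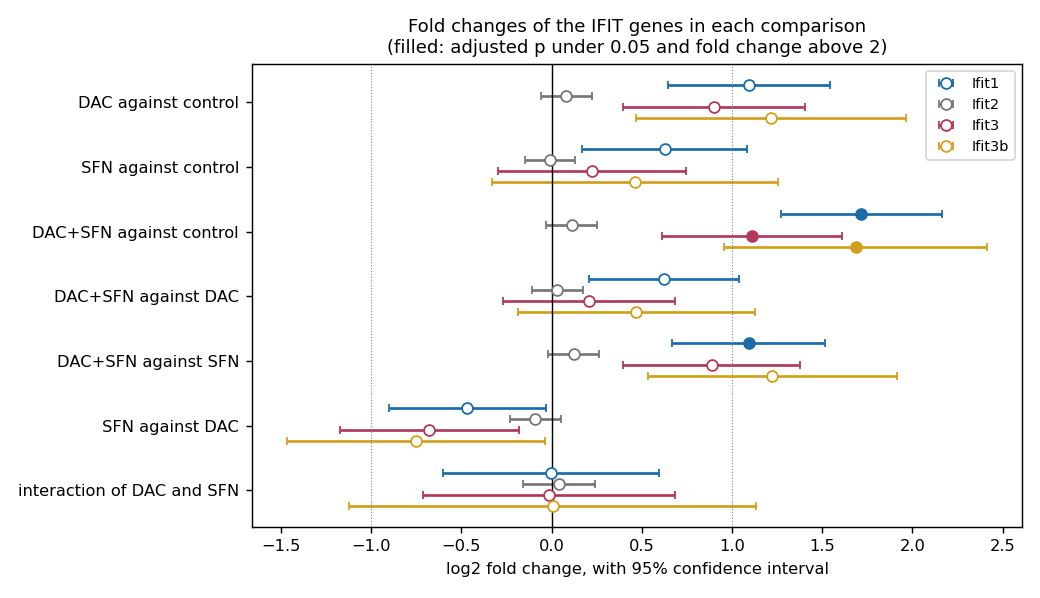
Log2 fold change (horizontal axis) of each IFIT gene in the 7 comparisons (vertical axis), as points with 95% confidence intervals. Filled points are changed, at an adjusted p under 0.05 and a fold change above 2 (dotted lines). Filled points are Ifit1, Ifit3 and Ifit3b with DAC+SFN against control and Ifit1 with DAC+SFN against SFN, and the interaction estimates sit at 0.

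The combination treatment was then compared to each drug alone. Against SFN, every combination library of Ifit1, Ifit3 and Ifit3b was above every SFN library, which held for 5.23% of all genes tested. Ifit1 was 2.13-fold higher (log2 fold change 1.09, SE 0.20, adjusted p = 0.0272 in edgeR) and was the 1 member of 4 that changed, where 0.112% of all genes did. Ifit3 was at 0.89 (SE 0.23, adjusted p = 0.0643 in edgeR) and Ifit3b at 1.22 (SE 0.32, adjusted p = 0.0687 in edgeR). The Ifit1 call was lost without SFN replicate 1 (adjusted p = 0.142 in edgeR), SFN replicate 3 (0.230), combination replicate 1 (0.146) or combination replicate 2 (0.0658), in the robust fit (0.0909) and without the replicate block (0.587). It was also lost with any replicate number left out in all groups, with an adjusted p of 0.557 in edgeR without number 1, 0.0634 without number 2 and a log2 fold change of 0.99 without number 3. Without SFN replicate 2, DAC replicate 3 or combination replicate 3, between 2 and 3 members changed. The difference that DAC made on top of SFN, 1.09 for Ifit1, 0.89 for Ifit3 and 1.22 for Ifit3b, stood beside 1.09, 0.90 and 1.22 for DAC alone compared to control, a comparison of other samples. With a library or a replicate number left out, the former ranged from 0.83 to 1.30, 0.57 to 1.13 and 0.81 to 1.51. Those for DAC alone ranged from 0.71 to 1.28, 0.48 to 1.09 and 0.58 to 1.47.

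Against DAC, 0 of 4 members changed with the combination treatment, where 0.928% of all genes did, and DESeq2 called 0. Ifit1 was 1.54-fold higher (log2 fold change 0.62, SE 0.20, adjusted p = 0.0428 in edgeR), which passed the adjusted p, as 9.55% of all genes did upwards, and not the fold change. It was the 1 member with an unadjusted p under 0.05, where 3553 of all 11638 genes had one. Ifit3 was at 0.21 (SE 0.22, adjusted p = 0.573 in edgeR) and Ifit3b at 0.47 (SE 0.31, adjusted p = 0.327 in edgeR). Their DAC and combination libraries overlapped, with DAC replicate 3 above all 3 combination libraries of both genes. Without that library the estimates were 0.99 for Ifit1 (adjusted p = 0.00175 in edgeR), 0.62 for Ifit3 (adjusted p = 0.0553) and 1.08 for Ifit3b (adjusted p = 0.0257), and Ifit3b changed. For SFN against DAC, 0 of 4 changed, where 0.636% of all genes did, and DESeq2 called 0. In this comparison 3 of 4 had an unadjusted p under 0.05, where 2238 of all 11638 genes did. The log2 fold changes there were -0.47 for Ifit1, -0.68 for Ifit3 and -0.75 for Ifit3b, and -0.10, -0.28 and -0.15 without DAC replicate 3.

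The interaction term asks whether the effect of both drugs differs from the sum of their single effects on the log2 scale. It was near 0 for all 4 members, with -0.0034 for Ifit1 (95% confidence interval -0.60 to 0.59), 0.041 for Ifit2 (-0.16 to 0.24), -0.014 for Ifit3 (-0.71 to 0.69) and 0.0067 for Ifit3b (-1.12 to 1.14). The adjusted p was 1.00 for Ifit1, Ifit3 and Ifit3b and 0.994 for Ifit2 in edgeR, and 0 members had an unadjusted p under 0.05. Of all genes tested 0% passed, with 683 genes at an unadjusted p under 0.05 and 0 called by DESeq2. The intervals leave room for a departure of up to 0.60 on the log2 scale for Ifit1 and up to 1.14 for Ifit3b. Without DAC replicate 3 the estimates were 0.39 for Ifit1, 0.42 for Ifit3 and 0.65 for Ifit3b, with adjusted p of 0.871, 0.901 and 0.895 in edgeR. This term also rests on the SFN dose, on which labels and methods differ.

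The members also differed between replicate numbers across the treatments. Replicate number 2 was 0.62 lower than number 1 for Ifit1 and 0.68 lower for Ifit3 on the log2 scale, and number 3 was 0.57 and 0.45 higher. In the test of both replicate terms together, Ifit1 (adjusted p = 0.000619 in edgeR) and Ifit3 (adjusted p = 0.00254 in edgeR) differed between replicate numbers, 2 of 4 members, where 33.9% of all genes did. Ifit3b (adjusted p = 0.0893 in edgeR) and Ifit2 (adjusted p = 0.158 in edgeR) did not pass, and 0 of 4 passed with replicate number 2 left out. The library numbers in the labels run with the replicate numbers, so a batch of libraries and a repeat of the culture cannot be told apart. Within each replicate number, Ifit1 was higher with the combination treatment than in control, by 1.70, 2.14 and 1.37 on the log2 scale in replicates 1, 2 and 3, where 27.8% of all genes were higher in all 3. The difference was 0.89, 0.87 and 1.33 for DAC alone and 0.68, 1.18 and 0.066 for SFN alone, and 20.5% and 25.5% of all genes were higher in all 3. SFN thus gave its smallest difference for Ifit1 in replicate 3, where Ifit3 and Ifit3b were 0.47 and 0.50 lower than in control.

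Shares within a library do not depend on its depth or scaling, and they were used to ask whether the members moved by the same factor. Ifit1 held 56.2% to 60.2% of the counts of Ifit1 and Ifit3 in control, 59.2% to 62.3% with DAC, 63.2% to 67.1% with SFN and 66.1% to 68.9% with the combination treatment. The SFN and combination libraries all lay above the control and DAC libraries. The mean difference from control was 6.39 percentage points with SFN and 9.46 with the combination treatment. Each gave p = 0.1 in an exact two-sided permutation test, the smallest p that 3 against 3 libraries allow, and an adjusted p of 0.2 over 18 such comparisons, so neither could pass the threshold. Ifit3b held 17.6% to 18.7% of the counts of Ifit3 and Ifit3b in control, 20.2% to 22.0% with DAC, 17.5% to 23.8% with SFN and 22.8% to 29.4% with the combination treatment. The DAC and the combination libraries were above all control libraries, each with an exact permutation p = 0.1. With 119 counts of both genes in control replicate 2, its share of 17.6% had a 95% Wilson interval from 11.8% to 25.5%, which covers counting error only. Ifit1 held 8.19% to 20.5% of the counts of Ifit1 and Ifit2 in control and 28.3% to 37.5% with the combination treatment, and these ranges did not overlap (exact permutation p = 0.1).

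**Figure D3:**
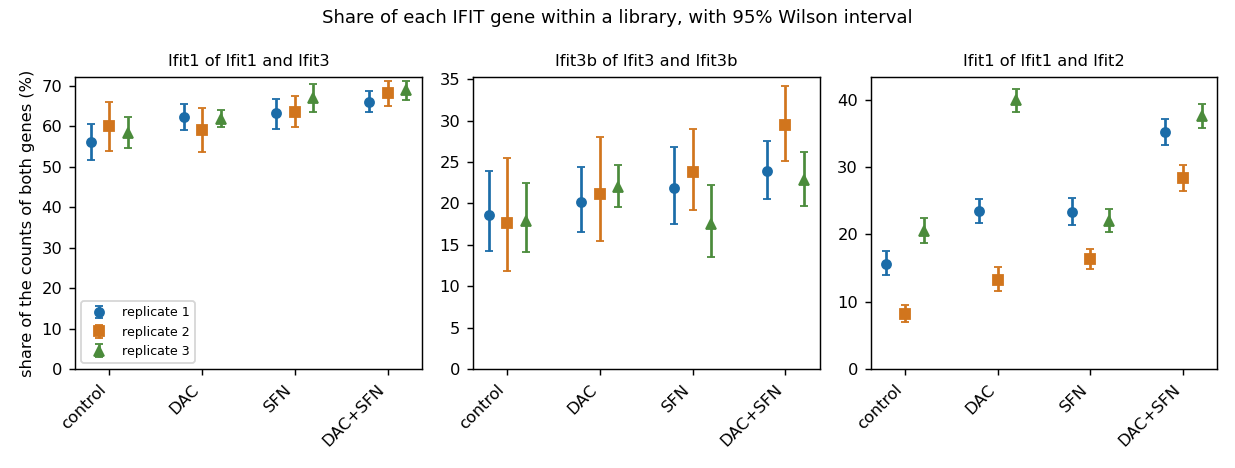
Share of the counts of both genes (vertical axes, percent) held by Ifit1 beside Ifit3, by Ifit3b beside Ifit3 and by Ifit1 beside Ifit2, in the 12 libraries by group. Points are libraries with 95% Wilson intervals, which cover counting error only. The share of Ifit1 beside Ifit3 is between 56.2% and 62.3% in control and DAC libraries and between 63.2% and 68.9% in SFN and DAC+SFN libraries.

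The interferons themselves were almost unread in these cells. None of the 13 interferon genes passed the filter, and together they had between 0 and 7 counts per library. Ifnb1, the first type I interferon made by many cells, had 0 to 4 counts, with 4 in DAC replicate 3 and in combination replicate 1. At these depths its level was below the 1 CPM of the filter in all 12 libraries.

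Receptors and signalling genes gave few calls. Of 19 tested, 0 changed by edgeR compared to control after DAC, SFN or both, where 0.0344%, 1.28% and 2.66% of all genes did. At an unadjusted p under 0.05 there were 5, 5 and 7 of 19, beside 1170, 3356 and 4940 of all 11638 genes. At an adjusted p under 0.05 alone, 3 of 19 were lower after SFN and 3 after both drugs, where 5.65% and 14.7% of all genes were, and DESeq2 gave 3 in each and 1 higher gene after DAC and after both. The SFN count of 3 was 0 without control replicate 1 and 1 without control replicate 2, DAC replicate 1 or any single SFN replicate, the count after both drugs was between 2 and 3 with any library left out and 1 without replicate number 1, and both were 0 without the replicate block. Ifnar1, a subunit of the type I receptor, was 0.24 lower with SFN (adjusted p = 0.0157 in edgeR) and 0.28 lower with the combination treatment (adjusted p = 0.00287 in edgeR) on the log2 scale, and Il10rb, a subunit of the type III receptor, was 0.21 (adjusted p = 0.0462) and 0.34 lower (adjusted p = 0.00152). The log2 fold changes against control were between -0.079 and 0.11 for Ifnar2, between -0.21 and -0.017 for Ifngr1, between -0.0095 and 0.026 for Ifngr2 and between -0.086 and 0.22 for Ifnlr1, and none of these passed. For Stat2 and Irf9 of the interferon-stimulated transcription complex, the log2 fold changes with the combination treatment were 0.037 and 0.18, with adjusted p of 0.846 and 0.394 in edgeR. Stat2 was 0.39 lower with SFN alone (adjusted p = 0.0444 in edgeR). Irf7, an interferon regulatory factor that is itself interferon-stimulated, had 2.48, 0.731 and 5.96 CPM in control, 3.85, 1.60 and 16.6 CPM with DAC, 2.02, 0.640 and 2.82 CPM with SFN and 3.87, 1.44 and 7.47 CPM with the combination treatment. It changed in the combination against SFN (log2 fold change 1.21, SE 0.28, adjusted p = 0.0471 in edgeR), as did Usp18, a protease that removes Isg15 from proteins and dampens receptor signalling (1.15, SE 0.26, adjusted p = 0.0471). Without control replicate 2 neither passed (adjusted p = 0.0518 in edgeR for each). For SFN against DAC the log2 fold changes were -1.81 for Irf7 and -1.46 for Usp18, and both changed. Without DAC replicate 3 they were -1.25 (adjusted p = 0.0141 in edgeR) and -0.93 (adjusted p = 0.0390), and Usp18 no longer passed the fold change.

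Part of the sensors of RNA and DNA were higher with the combination treatment, by less than 2-fold. Of 13 tested, 11 had an estimate above 0. At an adjusted p under 0.05, 6 were higher compared to control, where 17.0% of all genes were, and 0 passed the fold change. At an unadjusted p under 0.05 there were 9, beside 4940 of all 11638 genes. That count of 6 was between 3 and 8 with single libraries left out (3 without control replicate 1, 4 without control replicate 2 or combination replicate 1 or 2), 1 without replicate number 1, 3 without number 2 and 0 without the replicate block. After DAC alone 0 of 13 passed in edgeR, where 0.180% of all genes were higher at an adjusted p under 0.05. There were 6 of 13 at an unadjusted p under 0.05, beside 1170 of all 11638 genes, and 2 were called by DESeq2. Up to 3 passed with a library left out (SFN replicate 3). The median log2 fold change of the sensors was 0.24 with the combination treatment, 0.19 with DAC and -0.083 with SFN, beside 0.0078, 0.0049 and 0.0040 over all genes. Ddx58, which encodes the RNA sensor RIG-I, was at 0.67 (SE 0.14, adjusted p = 0.00262 in edgeR) and Ifih1, which encodes the sensor MDA5, at 0.68 (SE 0.15, adjusted p = 0.00337 in edgeR) with the combination treatment. Both were chosen after their values were seen, as the best known sensors of the list.

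Of the other interferon-stimulated genes, 19 passed after both drugs, and the number after DAC alone depended on the fit. With the combination treatment 19 of 36 were higher than control at an adjusted p under 0.05, where 17.0% of all genes were, and 7 changed. The 6 with the largest fold change were Ccl5 (log2 fold change 2.51, SE 0.21), a chemokine, Oasl1 (1.79, SE 0.41), Ddx60 (1.54, SE 0.30), Oasl2 (1.33, SE 0.33), the ubiquitin-like modifier Isg15 (1.13, SE 0.25) and the antiviral GTPase Mx2 (1.03, SE 0.34). Without control replicate 2, Isg15 (0.98) and Mx2 (0.73) no longer passed both thresholds. With DAC 2 of 36 were higher at an adjusted p under 0.05, where 0.180% of all genes were. They were Ccl5 (1.23, SE 0.22, adjusted p = 0.0441 in edgeR) and Ifitm3 (0.93, SE 0.13, adjusted p = 0.00680 in edgeR). However, 29 of 36 had an unadjusted p under 0.05, where 1170 of all 11638 genes did. Leaving out single libraries moved that count of 2 to between 0 and 10, with 0 without control replicate 1 or 2 and 10 without combination replicate 3. It was 23 with no filter on low counts and 26 in a fit of the DAC and control samples alone, where the count for both drugs was 21 and 20, and 7 with DESeq2, where the latter was 17. With DAC replicate 3 left out, the estimate was 0.97 for Ccl5 (adjusted p = 0.257 in edgeR) and 0.71 for Ifitm3 (adjusted p = 0.0105 in edgeR). With SFN 1 of 36 was higher, which was Ccl5 (1.78, SE 0.21, adjusted p = 8.37e-05 in edgeR), and 4 were lower, where 8.27% and 5.65% of all genes were. The 4 lower genes were 0 without control replicate 1 or SFN replicate 3, 1 without control replicate 2 and 2 without control replicate 3. The median log2 fold changes were 0.54 for both drugs, 0.68 for DAC and -0.17 for SFN, beside 0.0078, 0.0049 and 0.0040 over all genes. Without DAC replicate 3 the median for DAC was 0.42. For both drugs against DAC the median was -0.085, and 0.17 without DAC replicate 3, so its sign rested on that library. There Oas2 (-1.28, SE 0.31) and Ccl5 (1.28, SE 0.19) changed, and Oas2 was at -0.64 (adjusted p = 0.318 in edgeR) without it. The count of 19 was 11 without control replicate 1 or combination replicate 2, 13 without control replicate 2, 5 without replicate number 1 in all groups, 8 without number 2 and 3 without the replicate block.

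**Figure D4:**
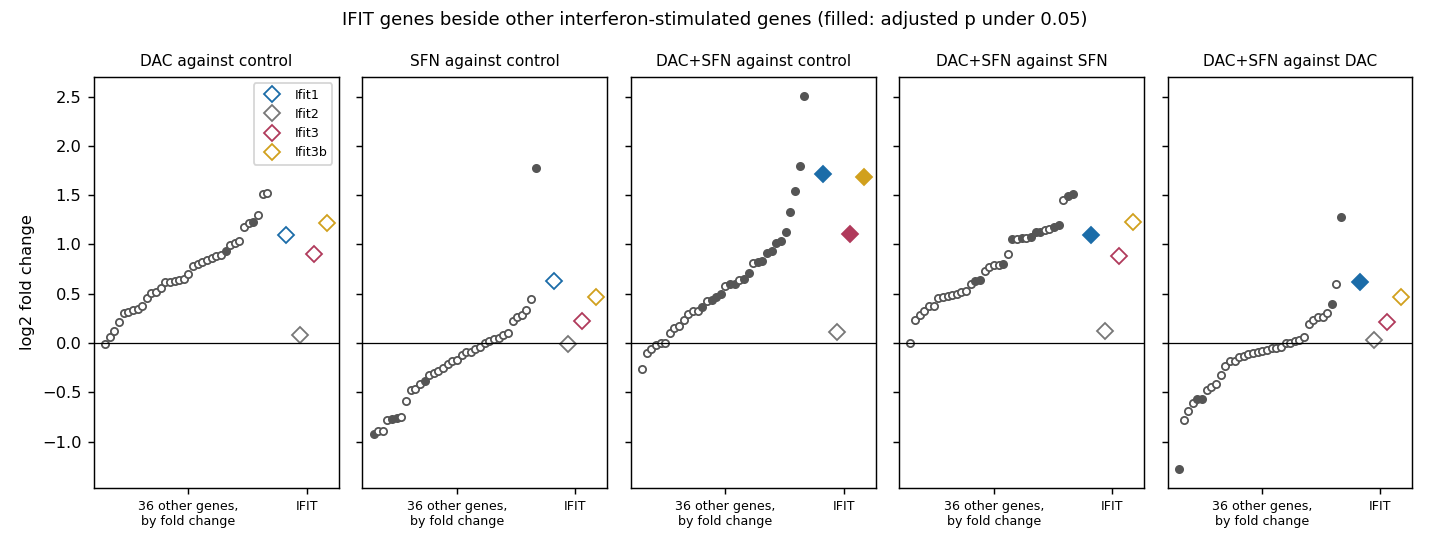
Log2 fold change (vertical axis) of 36 other interferon-stimulated genes, ordered by size (circles), and of the 4 IFIT genes (diamonds) in 5 comparisons. Filled symbols have an adjusted p under 0.05. Of the circles, 19 are filled and above 0 for DAC+SFN against control, 2 for DAC against control and 1 for SFN against control.

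Most other interferon-stimulated genes were lower after SFN than after DAC, the comparison in which DAC replicate 3 stood out. For SFN against DAC, 24 of 36 other interferon-stimulated genes were lower in SFN at an adjusted p under 0.05, where 2.96% of all genes were, and 14 changed, among them Oas2 (-2.07, SE 0.34), Oas1g (-1.84, SE 0.31), Oas1a (-1.65, SE 0.19), Rtp4 (-1.63, SE 0.24), Ifi44 (-1.56, SE 0.35) and Igtp (-1.47, SE 0.31). Without DAC replicate 3, 10 of 36 were lower at an adjusted p under 0.05, without SFN replicate 3 it was 6, and without the replicate block 0. Of these 6 genes, Oas1a (-1.47), Oas1g (-1.50) and Rtp4 (-1.30) still changed without DAC replicate 3, while Oas2 (-1.43, adjusted p = 0.0765 in edgeR), Igtp (-1.21, adjusted p = 0.0792) and Ifi44 (-0.82, adjusted p = 0.375) did not. Against SFN, the combination treatment had 12 of 36 higher, where 0.937% of all genes were, and 9 changed, led by Oasl2 (1.51, SE 0.34), Ddx60 (1.49, SE 0.30), the GTPase Irgm2 (1.19, SE 0.20), Rtp4 (1.18, SE 0.25), Trim30a (1.13, SE 0.25) and Isg15 (1.13, SE 0.25). That count of 12 was 22 without DAC replicate 3, 6 without control replicate 1, 1 without SFN replicate 1 or combination replicate 1, 3 without combination replicate 2 and 0 without SFN replicate 3 or the replicate block.

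Proteins that add or read the RNA cap or that IFIT proteins bind were taken as a list of partners. By edgeR, 0 of the 7 tested changed in any of the 7 comparisons. Compared to control 0, 1 and 1 of them had an unadjusted p under 0.05 with DAC, SFN and the combination treatment. Over all 11638 genes these counts were 1170, 3356 and 4940. At an adjusted p under 0.05 alone, 1 of 7 was lower after SFN and after both drugs, where 5.65% and 14.7% of all genes were. The lower partner was Eif3c, a subunit of a translation initiation factor, at -0.22 (SE 0.049, adjusted p = 0.00754 in edgeR) and -0.21 (SE 0.049, adjusted p = 0.00541). Cmtr1, which adds the methyl group whose absence Ifit1 reads, was at -0.13 (SE 0.29) with the combination treatment, and Eif3e, another subunit of that factor, was at -0.079 (SE 0.062). These 3 genes were chosen after their values were seen.

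Across the 12 libraries, Ifit1, Ifit3 and Ifit3b had similar profiles, with Pearson r between 0.957 and 0.965 on log2 CPM, while r between Ifit2 and these genes was 0.29 to 0.35. These libraries share treatments and replicate numbers, so the values only describe likeness. Among genes that are not members, the 8 most like the mean of the members over 12 libraries were Oasl1 (r = 0.97), Ifitm3 (0.95), Ddx60 (0.94), Gbp3 (0.94), Isg15 (0.93), Dhx58 (0.93), Mx2 (0.91) and Parp10 (0.91). All but Parp10 stood in the lists of interferon-stimulated genes or sensors. Ifitm3, an antiviral membrane protein, had 49.8, 41.0 and 64.9 CPM in control, 90.9, 64.4 and 149 CPM with DAC, 62.5, 57.7 and 65.6 CPM with SFN and 98.6, 79.3 and 117 CPM with the combination treatment. Its DAC and combination libraries overlapped, with a log2 difference of -0.0046 (95% confidence interval -0.27 to 0.26) where that of Ifit1 was 0.62 (0.20 to 1.04). Without DAC replicate 3 these were 0.22 and 0.99.

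**Figure D5:**
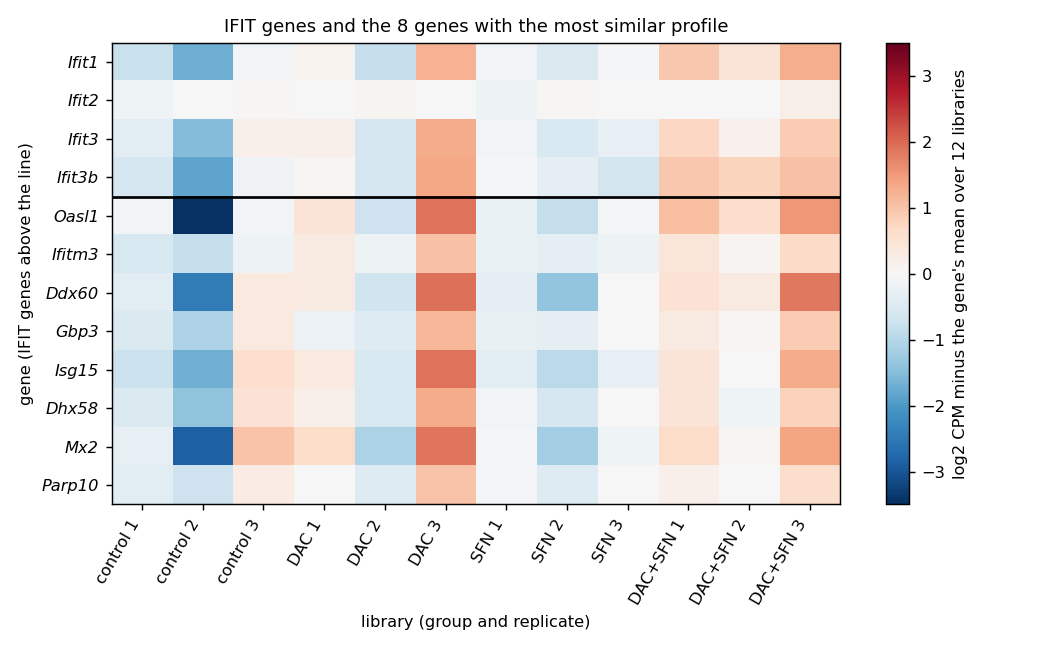
Log2 CPM minus the gene's mean over 12 libraries (colour) for the 4 IFIT genes, above the line, and the 8 genes with the most similar profile, in each library (columns). Control replicate 2 is the lowest column and DAC replicate 3 among the highest for all genes shown but Ifit2, whose row is nearly even.

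Few of the genes next to the members passed the filter. Ifit1bl1 and Ifit1bl2, the relatives on the other strand, had 0 to 8 and 0 to 9 counts per library and did not pass the filter. The start of Ifit1bl2 faces that of Ifit1, and both matches printed for Ifit1 lie between these genes, 70 and 51 bases before the start of Ifit1bl2. Lipa, a lysosomal lipase 23220 bases from the cluster, was 0.69 higher with SFN (SE 0.058, adjusted p = 5.88e-06 in edgeR) and 0.81 higher with the combination treatment (SE 0.058, adjusted p = 8.65e-07 in edgeR) on the log2 scale, under 2-fold in each, and 0.12 with DAC (adjusted p = 0.499). On the other side, Pank1, which starts coenzyme A synthesis, was at -0.0084 (SE 0.089) and Kif20b, a kinesin, at -0.29 (SE 0.097, adjusted p = 0.0311 in edgeR) with the combination treatment. Of the nearest 5 annotated genes on each side, Ch25h, Fas, Acta2, Stambpl1, Slc16a12, Mir107 and Mir1950 did not pass the filter. No annotated gene overlaps a member, and 5.19% of the 75-base windows of Ifit1 also occur in Ifit1bl2.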

How the data were processed

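RNA of 12 samples (3 per group) was sequenced as 75-base single reads. The authors trimmed reads with Trimmomatic 0.38 to at least 36 bases after FastQC 0.11.7, aligned them to mm10 with TopHat 2.1.1 and counted uniquely aligned reads per gene with htseq. The annotation and strand setting of the counting are not given in the sources used here. The authors deposited raw read counts per gene symbol, without normalization. Replicates of a group differed by more than sampling noise (chi-square per gene from 10.8 to 28.9), so none were copies.

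After genes that did not reach 1 CPM in any 3 of the 12 libraries were dropped, counts were scaled by TMM and tested with the legacy quasi-likelihood fit of edgeR 4.0.16 in R 4.3.3, 7 comparisons in 1 model of 12 samples, two-sided. The replicate number was taken as the block, since the study's methods correct for a batch without naming it. Samples with the same number deviated together from their group means (r = 0.544 on average over 18 pairs, from 0.270 to 0.732). Fold changes carry a prior count of 0.125, log2 CPM one of 2. SE is the log2 fold change over the square root of F. Shares within libraries were compared by exact permutation. The fits were tested on simulated data. DESeq2 1.42.0 was an alternative. Promoters were from RefSeq and gene models from GENCODE M21. Figures used matplotlib 3.10.9 in Python 3.11.15.

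Named genes were the members, other Ifit rows, up to 6 changed genes per list and comparison with the largest fold change, the ligands, receptor subunits, Stat2, Irf9 and Irf7, the 5 nearest annotated genes on each side, and the 8 genes most like the members. Exceptions are marked. Ligands not named are covered by the counts of their list, and 1 gene of the rule is not reported here. The members and lists were chosen with earlier results of these data known.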

Additional observations from a re-analysis of the deposited data

How the results depend on the processing

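Depth limits Ifit3b most (21 to 224 counts). With 3 replicates, exact tests on shares cannot fall under p = 0.1. Estimates of the 4 members moved little with scaling, filter or prior count. Their calls moved where an adjusted p lay near 0.05. The adjusted p of Ifit3b with DAC lay further away, yet the gene was called with no filter and with the groups compared alone. The cause of the moves below was not tested.

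Without the replicate block, Ifit1 (1.65, adjusted p = 0.0425 in edgeR) and Ifit3b (1.63, adjusted p = 0.0463) stayed past both thresholds for both drugs against control and Ifit3 did not (1.04, adjusted p = 0.150), and 0 of 4 members changed against SFN. All genes changed in this unpaired fit numbered 0, 13 and 169 against control after DAC, SFN and both, 9 for both drugs against DAC, 0 against SFN and 4 for SFN against DAC, in place of 4, 149, 310, 108, 13 and 74 with the block.

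For DAC against control, 1 member in place of 0 changed with RLE scaling, library totals without TMM, at least 10 counts in every sample, the version 4 fit of edgeR and DESeq2, and 2 changed with no filter and in the fit of the groups compared alone. All genes changed there numbered 10 with library totals, 24 with no filter, 9 in the version 4 fit, 19 in the groups compared alone and 11 with DESeq2. For the combination against SFN, 2 members in place of 1 changed with no filter, in the groups compared alone and with DESeq2, and 0 in the robust fit, with 23, 26 and 8 genes in all with no filter, in the groups compared alone and in the robust fit. For the combination against DAC, 70 genes changed with at least 10 counts in every sample.

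Leaving out 1 library or, as a choice made after seeing the data, 1 replicate number in all groups, gave 0 to 1 members for DAC against control, 2 to 3 for the combination against control, 0 to 2 against DAC, 0 to 3 against SFN and 0 to 3 that differed between replicate numbers. All genes changed ranged from 0 to 13 with DAC, 73 to 181 with SFN, 35 to 172 for the combination against DAC, 0 to 26 against SFN and 47 to 81 for SFN against DAC. Estimates that changed sign in these fits were not called in the full fit. They were Ifit2 with SFN (-0.067 to 0.023) and for the combination against DAC (-0.060 to 0.086), Ifit3 with SFN (-0.11 to 0.57), Ifit1 (-0.78 to 0.015) and Ifit3b (-1.15 to 0.041) for SFN against DAC, and the interaction of Ifit1 (-0.25 to 0.39), Ifit2 (-0.070 to 0.13), Ifit3 (-0.31 to 0.42) and Ifit3b (-0.38 to 0.65). The interaction of Ifit3b was also -0.00524 with no filter, -0.00428 without the replicate block and -0.031 in the version 4 fit, that of Ifit1 0.00976 with DESeq2 and that of the sum of Ifit3 and Ifit3b 0.00438.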
